A study of Mus musculus with 18 samples.

Results

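LY6 proteins are small proteins that most often sit on the cell surface through a lipid (GPI) anchor, and 6 mouse genes of this group, Ly6g, Ly6c1, Ly6c2, Ly6e, Ly6a and Ly6d, were taken by symbol from a table of 34896 genes. The mice had the C57BL/6 background and were adults 6 to 12 weeks old, and bone marrow cells were sorted as granulocyte-monocyte progenitors (GMP), as preneutrophils (preNeu), their dividing descendants, and as mature neutrophils (matNeu). RNA was measured in 3 libraries of each cell type. Sites of the chromatin remodeler CHD4 were mapped in wild-type (WT) GMPs and in Gfi1-/- GMPs, which lack the transcriptional repressor GFI1 in every cell. The histone mark H3K4me2, found at active and poised promoters and enhancers, was mapped in WT GMP, preNeu and matNeu cells, and each of these maps came from 1 library.

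LY6 proteins share a fold of looped fingers held by disulfide bridges and have no tail inside the cell, so that they act through partners at the membrane or as ligands. Several of them are the textbook antibody antigens of mouse blood cells: the antibody against GR1 binds LY6G, which marks neutrophils, and LY6C, which is also high on monocytes, SCA1 on stem cells is encoded by Ly6a, and LY6D marks lymphoid progenitors committed to the B cell fate. Ly6e is a broadly expressed, interferon-inducible member. Because the antibodies define the cells, a sort can fix what is seen: GMPs were collected free of GR1 and SCA1 staining and both neutrophil stages with GR1 staining. The values of Ly6g, Ly6c1, Ly6c2 and Ly6a in GMPs against the neutrophil stages are therefore given as a description with no test.

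All 6 genes lie on chromosome 15 (build GRCm38, GENCODE annotation). Ly6d stands at chr15:74762056-74763620 (minus strand) and is the most distant. From Ly6e at chr15:74955051-74959905 (plus strand) the others follow as Ly6a at chr15:74994877-74998031 (minus), Ly6c1 at chr15:75044018-75048830 (minus), Ly6c2 at chr15:75108158-75111970 (minus) and Ly6g at chr15:75155240-75159126 (plus). Promoter sequences from RefSeq (GRCm38.p6, 250 bases before to 50 bases after the start) were at hand for 3 of the 6 members, and Ly6e, Ly6a and Ly6d had no entry. They are shown for the 3 GR1 antigen genes, whose RNA levels differ widely, with the PU.1 core GAGGAAGT in capitals (PU.1 is a master regulator of myeloid genes). The windows are chr15:75155011-75155310 on the plus strand for Ly6g, chr15:75048788-75049087 on the minus strand for Ly6c1 and chr15:75111922-75112221 on the minus strand for Ly6c2, each written 5′ to 3′ on the gene's strand.
Ly6g: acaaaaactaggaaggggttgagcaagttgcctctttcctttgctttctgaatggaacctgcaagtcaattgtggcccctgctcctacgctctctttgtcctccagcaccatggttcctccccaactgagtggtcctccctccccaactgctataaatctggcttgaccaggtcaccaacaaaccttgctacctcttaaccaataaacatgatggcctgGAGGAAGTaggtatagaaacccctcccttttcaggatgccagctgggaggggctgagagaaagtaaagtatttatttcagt
Ly6c1: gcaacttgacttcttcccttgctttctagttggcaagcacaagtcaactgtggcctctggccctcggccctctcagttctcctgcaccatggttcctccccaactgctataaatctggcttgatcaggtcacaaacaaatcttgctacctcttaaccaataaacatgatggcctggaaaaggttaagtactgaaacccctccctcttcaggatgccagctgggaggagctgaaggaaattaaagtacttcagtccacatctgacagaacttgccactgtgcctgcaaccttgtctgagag
Ly6c2: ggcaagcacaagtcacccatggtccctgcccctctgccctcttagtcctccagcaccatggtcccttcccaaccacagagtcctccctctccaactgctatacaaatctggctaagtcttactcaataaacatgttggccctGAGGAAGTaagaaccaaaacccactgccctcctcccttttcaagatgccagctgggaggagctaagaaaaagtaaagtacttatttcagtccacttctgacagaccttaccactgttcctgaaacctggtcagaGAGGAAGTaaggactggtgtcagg
On either strand, the PU.1 core was found at 1 place upstream of Ly6g, 31 bases before the RefSeq start, at 2 places in the Ly6c2 window (108 bases before and 26 bases after the start), and at no place in the Ly6c1 window. It is present in 3.20% of 32851 promoters of this length. The C/EBP pattern TTNNGNAA had 2 matches each in Ly6g and Ly6c2 and 0 in Ly6c1, and 40.7% of all promoters hold it. Neither the GFI1 core AAATCA (14.0% of promoters) nor the interferon response pattern, GAAA repeated after any 2 bases (3.44%), had a match in these 3 windows. The motifs searched do not overlap each other in these windows. Aligned end to end with gaps, the promoters of Ly6c1 and Ly6g were identical in 65.2% of alignment columns, those of Ly6c1 and Ly6c2 at 63.6%, and those of Ly6g and Ly6c2 at 52.3%.

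Expression was given as TPM, a share of all transcripts corrected for transcript length, and each library sums to the same total, so that sequencing depth is unknown. Between 10754 and 12256 genes reached 1 TPM, and the 10 most abundant genes held 9.15 to 9.78%, 24.1 to 28.3% and 12.7 to 15.9% of the total in GMP, preNeu and matNeu libraries. For 13 of 18 samples a label field names another cell type than the title, and the titles were followed. The summed TPM of 8 GMP markers was 46452 to 48365 in the libraries titled GMP, 9032 to 10034 in preNeu and 14.4 to 40.8 in matNeu, and that of 10 neutrophil markers was 200.0 to 215, 138189 to 167735 and 53152 to 83870. The sort markers followed the gates in part: Cd34 was at 425 to 498 TPM in GMPs and 1.23 to 3.27 in preNeu, Kit at 177 to 194, 45.9 to 70.0 and 1.62 to 3.89 in the 3 cell types, Itgam (MAC1) at 12.8 to 17.9, 493 to 642 and 837 to 900, and Cxcr2 at 7.65 to 11.9, 64.7 to 93.4 and 3027 to 3976. Fcgr3 was at 534 to 788, 429 to 492 and 2795 to 3477 TPM, Cxcr4 at 49.2 to 58.7, 38.6 to 44.7 and 43.2 to 53.3, and Siglecf at 30.8 to 58.6, 14.8 to 23.5 and 31.2 to 48.7, lowest in preNeu. Summed markers of eosinophils, basophils and mast cells were at 1295 to 1575, 125 to 178 and 8.00 to 13.7 TPM, of T and NK cells at 473 to 619, 223 to 255 and 18.2 to 23.2 (9.53 to 16.2, 5.11 to 8.40 and 17.2 to 20.1 without Nkg7), of stem cells and multipotent progenitors at 399 to 459, 39.7 to 42.3 and 10.04 to 14.7 (70.7 to 103, 12.1 to 16.9 and 3.04 to 5.36 without Cd48), of endothelium at 117 to 126, 16.2 to 22.7 and 6.04 to 13.7, and of erythroid cells at 84.1 to 115, 33.3 to 64.5 and 5.02 to 11.2 (18.7 to 28.2, 4.23 to 5.73 and 1.28 to 8.69 without Tfrc). The genes left out in these sums are the most abundant of their lists in GMPs.

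Ly6g encodes the antigen used to recognize neutrophils. It was listed at 0, 1.06 and 0 TPM in the 3 GMP libraries, at 380, 275 and 285 TPM in preNeu and at 469, 593 and 351 TPM in matNeu. GMPs and both neutrophil stages did not overlap, whereas the lowest matNeu library lay below the highest preNeu library. Mean levels were 313 ± 58.2 TPM in preNeu and 471 ± 121 in matNeu (SD, n = 3 each), a ratio of 1.50. On the log2(TPM + 1) scale the difference of matNeu from preNeu was 0.57 ± 0.29 (SE) and did not pass the test (limma, adjusted p = 0.116). This call depended on the setting: after median-ratio scaling the difference was 0.94 with a limma adjusted p of 0.0155, and the adjusted p ranged from 0.0155 to 0.779 over 17 alternatives. Leaving out GMP replicate 2 gave an adjusted p of 0.0336. A fit of the 2 neutrophil stages alone gave 0.0322. Log2 differences from GMPs were 7.93 for preNeu and 8.50 for matNeu, and as 2 GMP libraries are at 0 these values depend on the pseudocount (10.42 and 10.99 with a pseudocount of 0.1).

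Ly6c2, the main LY6C gene of C57BL/6 myeloid cells, was the most abundant member in GMPs and preNeu. Its level was 3188, 2603 and 3096 TPM in GMPs, 2184, 1792 and 1623 TPM in preNeu and 972, 1161 and 676 TPM in matNeu. The 3 cell types did not overlap and each later stage was lower. By mean TPM it ranked 19th of all genes in GMPs, 43rd in preNeu and 169th in matNeu. Means were 2962 ± 315, 1866 ± 288 and 937 ± 245 TPM (SD, n = 3 each), so that preNeu held 1.99 times the matNeu level. From preNeu to matNeu the level fell by 1.02 on the log2 scale (SE 0.19, limma adjusted p = 0.000734), or by 0.70 relative to the median gene, and the call held under all 18 alternatives (adjusted p 2.88e-05 to 0.0306). Described against GMPs, the log2 differences were -0.67 in preNeu and -1.69 in matNeu, and median-ratio scaling shrank them to -0.16 and -0.80. These were the smallest falls among 18 alternatives, and the largest were -0.79 in preNeu and -2.30 in matNeu.

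LY6C is shared with monocytes, so the monocyte markers stand beside it. The summed TPM of 12 such markers, among them Csf1r, Ccr2 and Irf8, ranged from 2082 to 2533 in GMPs and from 67.2 to 115 in preNeu, and matNeu libraries had 450 to 612, with none of them at 0 in all libraries of a cell type. Ly6c2 and this sum were thus both highest in GMPs. From preNeu to matNeu 3 of the 12 markers rose (Csf1r, Ctss and Cd14), 2 fell like Ly6c2 (Ccr2 by 1.52 and F13a1 by 1.83 on the log2 scale) and 7 did not pass the test (median 0.11). Of all genes 22.9% rose and 39.8% fell (median -0.32). The part of monocyte-lineage cells in the Ly6c2 values was not tested. In these bulk libraries fewer cells of a type and less RNA per cell cannot be told apart.

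Ly6c1, the close copy of Ly6c2 that is best known from endothelium and lymphocytes, was low throughout. It was measured at 12.1, 5.57 and 10.8 TPM in GMPs, at 10.7, 12.5 and 15.4 TPM in preNeu and at 4.93, 2.33 and 1.75 TPM in matNeu. GMP and preNeu libraries overlapped, and all 3 matNeu libraries lay below every other library. The means were 9.51 ± 3.47, 12.9 ± 2.37 and 3.003 ± 1.69 TPM (SD, n = 3 each). From preNeu to matNeu Ly6c1 fell by 1.86 on the log2 scale (SE 0.36, limma adjusted p = 0.000915), and by 1.54 relative to the median gene, and the call held under all 17 alternatives (adjusted p 0.000335 to 0.0188). Ly6c2 stood at 105 to 498 times the TPM of Ly6c1 in the same library. The log2 differences of Ly6c1 from GMPs were 0.45 in preNeu and -1.41 in matNeu, the latter shrinking to -0.059 under quantile normalization. The summed endothelial markers given above were mostly Pecam1 and Egfl7, which progenitors also express. The other 7 summed to 3.55 to 4.52 TPM in GMPs, with Cdh5 and Cldn5 at 0, to 0.0451 to 0.174 in preNeu and to 0.368 to 0.989 in matNeu, and their part in the Ly6c1 values was not tested.

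How far the copies can be told apart depends on their sequence. Of all 31-base words in the annotated transcripts of Ly6c1, 53.2% occurred in no other gene, and 581 of its 1758 words were shared with Ly6c2, 276 with Ly6a and 72 with its neighbour Ly6i. The unique share was 68.1% for Ly6a, 76.3% for Ly6c2 and 90.5% for Ly6g, against 99.6% for Ly6e and 100% for Ly6d. With 50-base words the share rose to 67.2% for Ly6c1, 81.0% for Ly6a, 85.6% for Ly6c2 and 99.6% for Ly6g. The low values of Ly6c1 and Ly6a beside the much higher Ly6c2 are accordingly uncertain, while Ly6e and Ly6d are hardly touched. The table lists Ly6c2 under a retained-intron transcript type.

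Ly6e, the interferon-inducible member, changed at both steps, with a trough in preNeu. Its level was 2839, 1994 and 2558 TPM in GMPs, 176, 184 and 144 TPM in preNeu and 1163, 1035 and 1032 TPM in matNeu. The 3 cell types did not overlap. Means were 2464 ± 430, 168 ± 21.2 and 1077 ± 74.6 TPM (SD, n = 3 each), and its rank by mean TPM was 27th in GMPs, 823rd in preNeu and 143rd in matNeu. GMPs held 14.6 times the preNeu level, and matNeu held 6.40 times the preNeu level.

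The fall of Ly6e from GMP to preNeu was -3.86 ± 0.15 on the log2 scale (SE, limma adjusted p = 1.44e-08), and the gain from preNeu to matNeu was 2.68 ± 0.15 (limma adjusted p = 6.76e-08). Only 1.02% of tested genes had a lower log2 change in preNeu against GMP, and 4.22% had a higher one in matNeu against preNeu. These changes passed the test under all 17 alternatives, with ranges of -4.00 to -3.34 and 2.15 to 3.05. In contrast, the difference between matNeu and GMP was -1.18 ± 0.15 (limma adjusted p = 2.15e-05), and was only -0.26 relative to the median gene. Over 17 alternatives the difference ranged from -1.75 to -0.29 (limma adjusted p 3.25e-06 to 0.124). The weakest value, -0.29 with a limma adjusted p of 0.124, came from median-ratio scaling.

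Of 24 interferon-stimulated genes, 23 were tested, and 19 were higher and 0 lower in matNeu than in preNeu. Of all genes 22.9% were higher and 39.8% lower. The median log2 difference was 3.86, against -0.32 over all genes. The largest gains were those of Rtp4 (6.70), a chaperone of receptor traffic, and Rsad2 (6.21), the antiviral enzyme viperin. Between GMP and preNeu, where Ly6e fell, 5 of the 23 rose and 2 fell (14.7% and 44.3% of all genes did, median -0.07, against -0.52). In matNeu against GMP 20 rose and 3 fell (22.8% and 54.1% of all genes did, median 3.64, against -0.92). The 3 that fell included Bst2 (-2.23), which encodes the virus-tethering protein tetherin, and Mx1 (-1.16), an antiviral GTPase. Ifit3 (7.87) and Ifi27l2a (6.95) rose most. Ly6e thus moved with this group from preNeu to matNeu but was lower in matNeu than in GMPs, where 20 of the group were higher.

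Ly6a encodes SCA1, against which the GMPs were gated. It was measured at 1.34, 2.36 and 3.21 TPM in GMPs, at 1.57, 6.43 and 10.04 TPM in preNeu and at 7.22, 12.4 and 4.58 TPM in matNeu. The matNeu libraries lay above all GMP libraries, and preNeu libraries overlapped both. Mean levels were 2.30 ± 0.935, 6.01 ± 4.25 and 8.05 ± 3.95 TPM (SD, n = 3 each). The difference of matNeu from preNeu was 0.51 ± 0.52 on the log2 scale and did not pass the test (limma adjusted p = 0.417). One library decided its sign, since without preNeu replicate 1 the difference was -0.093 (limma adjusted p = 0.870), and under quantile normalization it was 1.20 with a limma adjusted p of 0.0439. The range of the limma adjusted p over 17 alternatives was 0.0439 to 0.870. Log2 differences from GMPs were 0.89 in preNeu and 1.40 in matNeu.

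Ly6d, known from lymphoid progenitors, was the rarest member in GMPs, where it was listed at 0 TPM in all 3 libraries. It was at 3.77, 1.18 and 1.58 TPM in preNeu and at 12.3, 7.74 and 23.6 TPM in matNeu. The 3 cell types did not overlap. The means of 2.18 ± 1.39 and 14.5 ± 8.15 TPM (SD, n = 3 each) differ 6.67-fold. Ly6d rose from GMP to preNeu by 1.58 ± 0.41 on the log2(TPM + 1) scale (SE, limma adjusted p = 0.00658) and again from preNeu to matNeu by 2.24 ± 0.41 (limma adjusted p = 0.000625). Against GMPs the matNeu difference was 3.83 ± 0.41 (limma adjusted p = 6.57e-06). As all GMP libraries are at 0, the sizes against GMPs depend on the pseudocount (4.34 and 7.04 for preNeu and matNeu with a pseudocount of 0.1). Ly6d reached 1 TPM in 6 libraries, those of preNeu and matNeu. It thus passed the filter of 1 TPM in 3 libraries only through the stages where it is high. Its tests against GMPs are therefore no independent support for a rise. The 3 Ly6d calls held under all 17 alternatives, and the limma adjusted p of preNeu against GMP ranged from 0.000225 to 0.0286.

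B cells and plasmacytoid dendritic cells, which are known to express Ly6d, were followed through their markers. The 10 B cell markers summed to 82.5 to 97.8 TPM in GMPs, with Ebf1 and Pax5 among those at 0, to 31.8 to 57.5 in preNeu and to 72.8, 101 and 156 TPM in the 3 matNeu libraries. Nearly all of the GMP sum was Cd79b, and the other 9 markers summed to 3.51 to 4.67, 14.5 to 39.0 and 45.5 to 102 TPM in GMP, preNeu and matNeu, in the same order as Ly6d. In those matNeu libraries Cd79a, a signaling chain of the B cell receptor, was at 16.2, 18.6 and 33.1 TPM. Ly6d stood at 12.3, 7.74 and 23.6 TPM in them. The B cell sum, Cd79a and Ly6d were all highest in matNeu replicate 3. The lowest B cell sum and the lowest Ly6d were in different libraries. From preNeu to matNeu 5 of 9 tested B cell markers rose and 0 fell (22.9% and 39.8% of all genes did). The 8 markers of plasmacytoid dendritic cells summed to 118 to 129, 19.3 to 31.1 and 62.8 to 77.8 TPM in the 3 cell types, with Klk1 at 0 in GMPs. From preNeu to matNeu 4 of the 5 tested rose, against 22.9% of all genes. Among the 4 was Siglech, which passed the filter of 1 TPM in 3 libraries only through matNeu. Its rise is therefore no independent support. Bst2 and Tcf4, which other cells express too, made up most of the GMP sum. The other 6 summed to 12.4 to 15.5, 10.7 to 14.2 and 45.7 to 62.4 TPM, and the defining gene Siglech was at 0 to 0.177, 0.142 to 0.6003 and 6.595 to 11.6 TPM. The part of these cells in the Ly6d values was not tested.

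**Figure D1:**
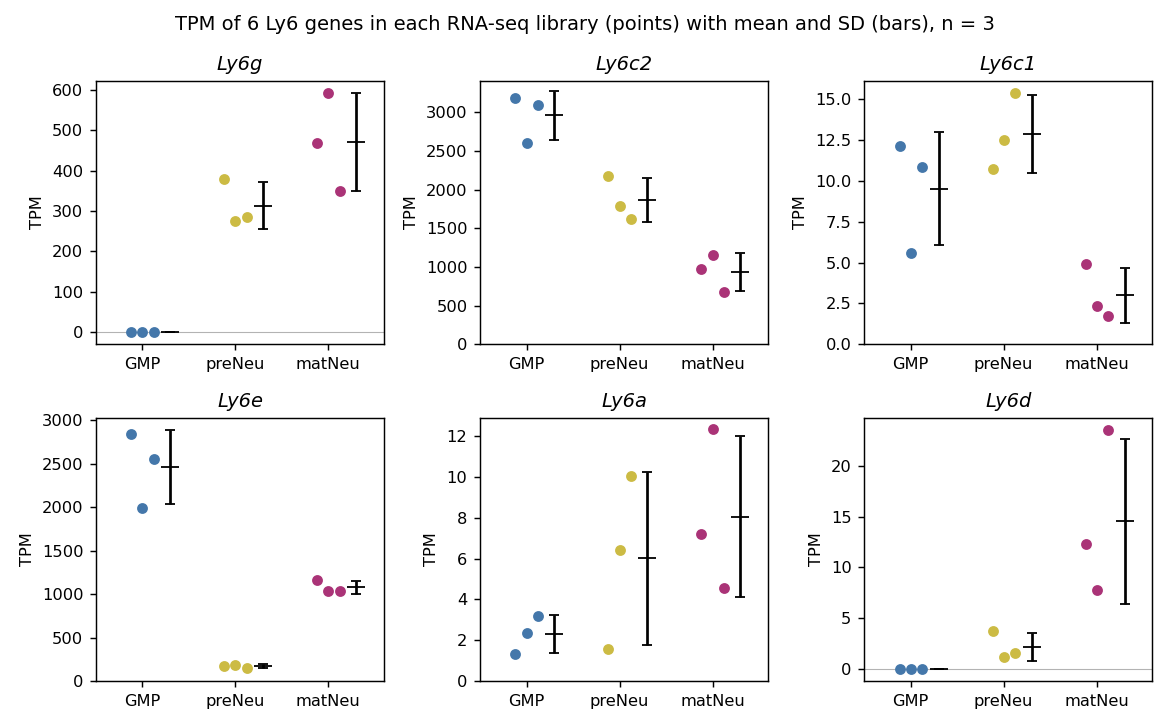
TPM of each of the 6 genes in the 3 GMP, 3 preNeu and 3 matNeu libraries; each point is 1 library, the bar beside the points is the mean ± SD (n = 3), and each panel has its own axis. Ly6e has its trough in preNeu (144 to 184 TPM), Ly6c2 is lower at each later stage, and Ly6d is at 0 in the GMP libraries.

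Counted together, 2 members (Ly6e and Ly6d) were higher in matNeu than in preNeu, 2 (Ly6c2 and Ly6c1) were lower, and 2 (Ly6g and Ly6a) did not pass the test. Among the 13061 genes tested 62.8% were called, 22.9% higher and 39.8% lower. In preNeu against GMP both members that could be tested were called, Ly6d among the 14.7% of genes that were higher and Ly6e among the 44.3% that were lower (59.0% in all). In matNeu against GMP both were called as well, Ly6d with the 22.8% higher and Ly6e with the 54.1% lower (76.9% in all). Calls were so frequent that these counts say little about the members. Ly6d also entered the comparisons with GMPs only through its values in the neutrophil stages.

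The scale matters for directions, because the median gene differed by -0.32 on the log2 scale in matNeu against preNeu, by -0.52 in preNeu against GMP and by -0.92 in matNeu against GMP. Of the called genes 36.5%, 25.0% and 29.6% were higher in these comparisons, against 47.2%, 45.1% and 45.2% after median-ratio scaling and 50.3%, 48.1% and 50.2% after quantile normalization. Relative to the median gene, the changes from preNeu to matNeu were 2.99 for Ly6e, 2.56 for Ly6d, 0.89 for Ly6g, 0.83 for Ly6a, -0.70 for Ly6c2 and -1.54 for Ly6c1. The direction of these 6 changes was kept under both other scalings.

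**Figure D2:**
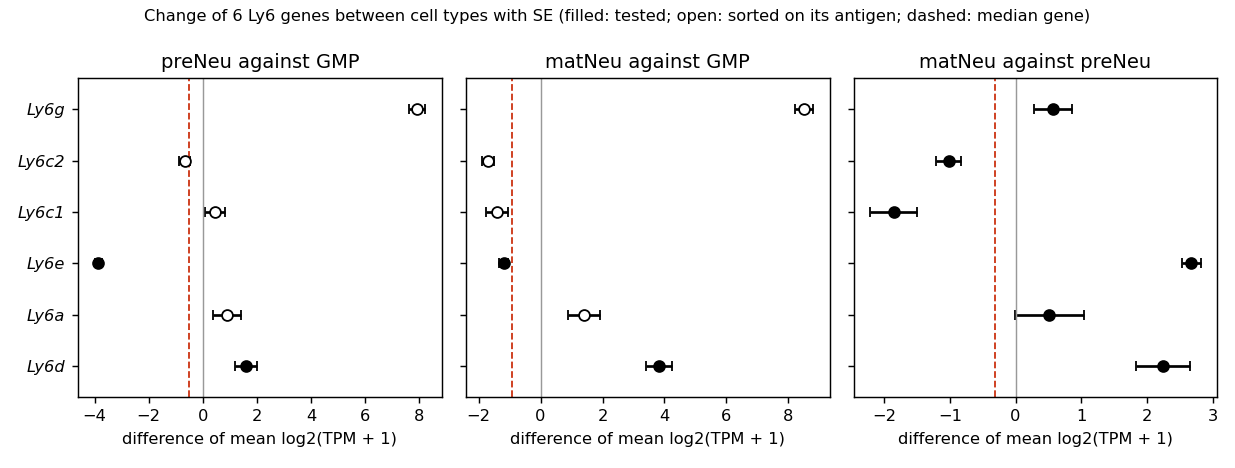
Difference of mean log2(TPM + 1) with its SE for each gene in the 3 comparisons; filled symbols were tested, open symbols are values of genes on whose protein the cells were sorted, and the dashed red line is the median of all 13061 genes. Ly6e lies far below the median in preNeu against GMP (-3.86) and far above it in matNeu against preNeu (2.68).

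The 6 genes together had a summed level of 4606 to 6041 TPM in GMPs, which was 2079 to 2757 TPM in preNeu and 2088 to 2812 TPM in matNeu. In GMPs Ly6c2 made up 52.8 to 56.5% of that sum and Ly6e 43.3 to 47.0%. In preNeu Ly6c2 made up 78.1 to 79.2%, and Ly6g (12.1 to 13.8%) came before Ly6e (6.40 to 8.11%). In matNeu Ly6e made up 36.8 to 49.4%, Ly6c2 32.4 to 41.3% and Ly6g 16.8 to 21.1%. Among neighbours in the order of TPM, the libraries overlapped for Ly6c2 and Ly6e in GMPs and matNeu, for Ly6g and Ly6d in GMPs, for Ly6a and Ly6d in preNeu and matNeu, and for Ly6a and Ly6c1 in matNeu. The summed levels of preNeu and matNeu were similar but were divided differently among the members.

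Genes with the profile most like each member were found by the Euclidean distance between centred log2(TPM + 1) values over the 9 libraries. Nearest to Ly6g were Plbd1 (distance 1.18), Lrg1 (1.31) and Fgr (1.85), to Ly6e the cyclin gene Ccnd2 (1.03), Zbtb16 (1.07) and Anxa6 (1.11), and to Ly6d Klf3 (1.19), Myo1d (1.22) and Slc35a5 (1.23). Ly6c2 had close neighbours in Eef1akmt2 (0.434), Cuedc2 (0.487) and the proteasome gene Psmb4 (0.523). For Ly6c1 they were Slc25a29 (0.976), Prkar1b (1.01) and Isca1 (1.07), and for Ly6a Pet100 (1.19), Prss2 (1.21) and Cfap45 (1.30).

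Beyond these genes, most of the wider LY6/uPAR family was silent or low, as were most genes of the whole table. Of 40 further members listed, 38 were in the table, 15 were at 0 in all 9 libraries and 25 stayed below 1 TPM, while 10 reached a mean of 1 TPM in some cell type and 3 a mean of 100 TPM. The filter of 1 TPM in 3 libraries was passed by 10 of the 38, and by 13061 of all 34896 genes. Of the 10 tested, 4 rose, 4 fell and 2 did not pass the test from preNeu to matNeu (22.9% of all genes rose and 39.8% fell, and the median was 0.28, against -0.32). From GMP to preNeu 4 rose and 3 fell (14.7% and 44.3% of all genes, median -0.29, against -0.52), and 6 were higher and 3 lower in matNeu than in GMP (22.8% and 54.1%, median 1.32, against -0.92).

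Cd177, a neutrophil surface protein with LY6 domains, reached the highest level of all, with ranges of 3.74 to 8.36, 4349 to 4960 and 1349 to 1982 TPM in GMP, preNeu and matNeu, and it rose by 9.35 from GMP to preNeu and fell by 1.60 from preNeu to matNeu on the log2 scale (limma adjusted p = 1.11e-09 and 0.000145). Plaur, the urokinase receptor, rose at both steps, with ranges of 43.6 to 58.99, 443 to 501 and 953 to 1203 TPM in the 3 cell types (log2 change 3.15 and 1.15, limma adjusted p = 5.59e-08 and 3.33e-05). Cd59b, which protects cells from complement, had the opposite course, with ranges of 94.1 to 118, 3.36 to 7.18 and 1.56 to 3.67 TPM (log2 change -4.13 and -0.93, limma adjusted p = 1.85e-06 and 0.0204).

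Lypd6b was seen mainly in matNeu, at no more than 0.613 TPM in any GMP or preNeu library and at 20.4 to 27.4 TPM in matNeu (limma adjusted p = 1.43e-07 against preNeu). It passed the filter of 1 TPM in 3 libraries only through matNeu, so this test is no independent support for a rise. Ly6g5b was highest in preNeu, at 8.51 to 14.6 TPM, against 0 to 1.37 in GMPs and 1.78 to 5.21 in matNeu, with log2 changes of 3.07 and -1.46 at the successive steps (limma adjusted p = 0.000109 and 0.0103). Ly6g5b passed the filter only through the neutrophil stages, so its test against GMPs is no independent support either. Ly6i, which lies among the members on chromosome 15 and shares words with Ly6c1 and Ly6a, was at 0.951 to 3.10, 4.65 to 7.37 and 6.86 to 9.80 TPM, and its difference between matNeu and preNeu (0.45) did not pass the test (limma adjusted p = 0.261).

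**Figure D3:**
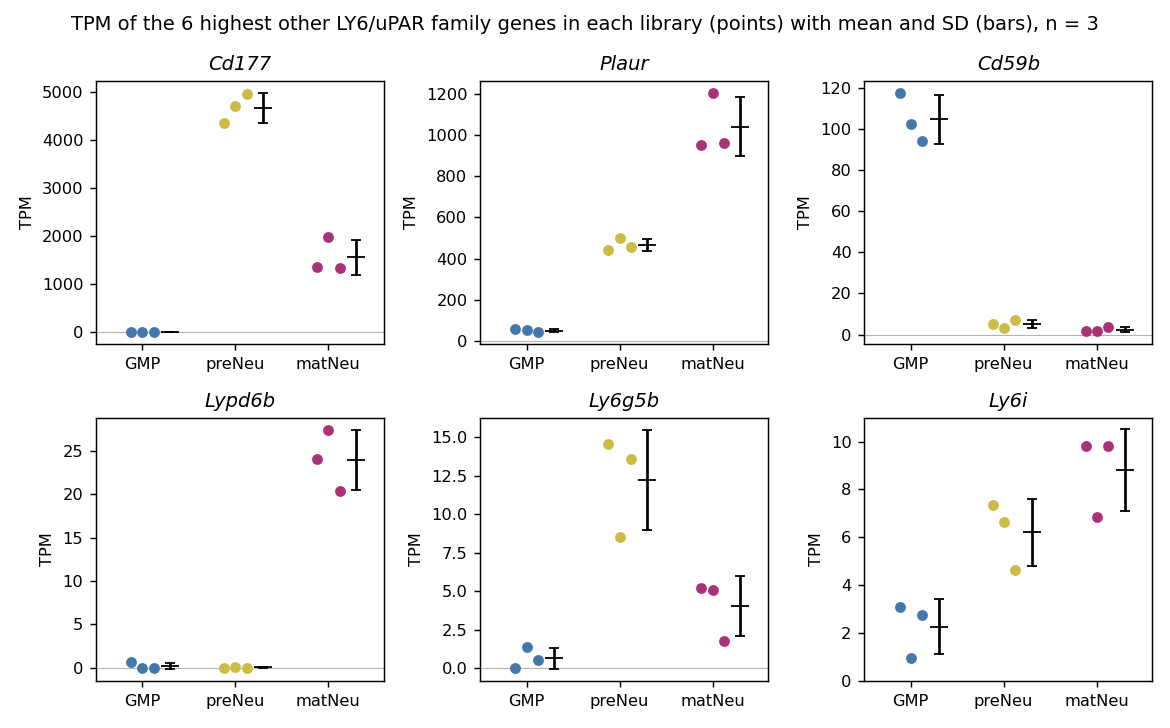
TPM of the 6 most abundant further LY6/uPAR genes in each library (points) with the mean ± SD (n = 3) beside them. Cd177 peaks in preNeu (4349 to 4960 TPM), Plaur is higher at each later stage, and Cd59b is high in GMPs (94.1 to 118 TPM).

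Most LY6 proteins need the machinery that builds and remodels GPI anchors. Of 32 such genes, 28 were tested, and 14 fell and 7 rose from preNeu to matNeu (39.8% and 22.9% of all genes did, and median -0.95, against -0.32), 16 fell and 2 rose from GMP to preNeu (44.3% and 14.7% of all genes did, and median -0.72, against -0.52), and 19 were lower and 5 higher in matNeu than in GMP (54.1% and 22.8% of all genes were, and median -1.20, against -0.92). Pigu, a subunit of the transamidase that attaches the anchor, fell by 3.05 from preNeu to matNeu, and Pigp, part of the enzyme for the first step of anchor synthesis, by 2.78. Gpld1, a phospholipase that cleaves GPI anchors, rose by 2.26 and Pigl, which deacetylates the first intermediate, by 1.72. Gpld1 passed the filter of 1 TPM in 3 libraries only through matNeu, so its calls are no independent support for a rise. Against GMPs the lowest values in matNeu were those of Pigh (-3.81) and Pigu (-3.69) and the highest those of Tmem8, also called Pgap6 (1.59), and Gpld1 (1.55).

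At the chromatin of GMPs, CHD4 peaks lay within 10 kb of 5 of the 6 genes in WT cells, 15 peaks in all, whereas 32.4% of 21938 protein-coding genes had such a peak. Ly6c2 and Ly6a had 5 peaks each, Ly6e and Ly6c1 2 each and Ly6g 1. Ly6d had none, its nearest peak being 21651 bp away. The transcription start itself was covered in 3 members (Ly6c2, Ly6e and Ly6c1), against 4.01% of genes. The members have no independent positions, since the 5 with peaks are neighbours. From Ly6e to Ly6g, with 10 kb on either side, there were 26 WT peaks, or 11.6 per 100 kb, against 1.31 over the genome. Of the 26, 7 lay over identical copies of 1 sequence described below, among which reads can be shared, so this density is uncertain.

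By fold enrichment over background, as the peak caller gave it, the strongest of the 15 was the promoter peak of Ly6c2, at chr15:75111659-75112738, with a value of 26.4 that exceeds 93.5% of the WT list. Its summit lay 442 bp upstream of the start, outside the promoter sequence shown above, while the peak contains that sequence whole. Further upstream of Ly6c2 stood peaks of 15.2 (4777 bp), 4.92 (5720 bp) and 18.1 (6627 bp), and 1 of 5.27 lay 10646 bp downstream of the start. The start of Ly6e was covered by a peak of 12.1 at chr15:74954820-74955157, with another of 3.88 beyond the gene.

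Ly6c1 had weak peaks, of 4.65 at its start and 4.19 at 9091 bp upstream, which exceed 8.09% and 3.77% of the list. For Ly6a the largest values were 14.0 and 12.1, at 9307 and 5447 bp downstream of the start and beyond the end of the gene, and a peak of 5.89 had its summit 154 bp inside the gene. Peaks of 4.34 (1848 bp upstream) and 4.02 (8806 bp downstream) made up the 5. Ly6g had no peak at its promoter, and its only peak, of 11.1, lay 12162 bp downstream of the start.

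In Gfi1-/- GMPs a CHD4 peak was left near 1 of the 6 genes, against 10.2% of protein-coding genes. It was the Ly6c2 promoter peak, at chr15:75111884-75112550, with a fold enrichment of 7.60 that exceeds 65.8% of its list and a summit 433 bp upstream of the start. So 1 of the 15 WT peaks overlapped a Gfi1-/- peak, compared with 18.5% of all 35790 WT peaks. The peak that was left was also the strongest. Of the 2313 WT peaks with a fold enrichment of at least 26.4, 98.0% overlapped a Gfi1-/- peak. With 1 library per genotype there is no replicate check, the Gfi1-/- list is shorter (7316 peaks), and its fold enrichments cannot be read as amounts against the WT list. Over the stretch from Ly6e to Ly6g with 10 kb on either side 9 Gfi1-/- peaks were called, or 4.02 per 100 kb against 0.266 over the genome, so most of them lay outside the 10 kb windows of the members. Here too, 3 copies of that shared sequence were under a Gfi1-/- peak. A peak missing from a list was not called, which does not show that CHD4 was absent.

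H3K4me2 peaks lay within 10 kb of all 6 genes in each cell type, 15 peaks in GMP, 10 in preNeu and 10 in matNeu, while 73.6%, 74.2% and 72.1% of protein-coding genes had one. Most GMP peaks were weak, and with a −log10 q of at least 5 there were 1 GMP (at Ly6c2), 7 preNeu and 6 matNeu peaks, none of them at Ly6d, so that the order of the counts turned. The start was covered in 2 members in GMPs (Ly6c2 and Ly6e) and in 3 in both neutrophil stages (Ly6g, Ly6c2 and Ly6e), against 49.7%, 55.2% and 52.8% of genes. The whole lists cover 49.8, 97.9 and 80.4 Mb in the 3 cell types and have median fold enrichments of 2.89, 4.55 and 3.78, so that wider and higher peaks in preNeu are common to the genome.

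At Ly6g, 2 small GMP peaks (fold enrichment 2.48 and 2.52) lay upstream of the gene. In preNeu a domain of 8713 bp at chr15:75149588-75158300 ran over the start, with a value of 8.78 that exceeds 78.2% of its list, and in matNeu a domain of 9142 bp had a value of 8.09 (83.5%). Of the 23887 bp of the window, 1080 bp were covered in GMPs, 9843 bp in preNeu and 9142 bp in matNeu, next to RNA at 0 to 1.06, 275 to 380 and 351 to 593 TPM.

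Ly6c2 had the mark at its start in every cell type, in GMPs as a peak of 4875 bp (3.78, above 85.6% of its list), in preNeu as a domain of 12490 bp (12.5, 95.0%) and in matNeu of 12603 bp (8.23, 84.5%). Covered length and RNA went opposite ways here, as the Ly6c2 level was highest in GMPs. Ly6e also kept a peak over its start, of 5633 bp in GMPs (3.49, 75.4%), 3700 bp in preNeu (12.4, 94.8%) and 3333 bp in matNeu (8.39, 85.5%). The preNeu peak had the highest standing within its list although Ly6e RNA was lowest in preNeu.

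Ly6a, with RNA of at most 12.4 TPM, had a strong domain, of 7202 bp in preNeu (14.3, above 98.2% of its list) and 6188 bp in matNeu (9.89, 93.0%), but it lay beyond the 3′ end of the gene and did not reach the start. Ly6c1 had a peak inside the gene, of 856 bp in GMPs, 2484 bp in preNeu and 1342 bp in matNeu, that did not reach its start either. At Ly6d the only peaks (1178, 562 and 182 bp) lay at exons of the neighbouring gene Lynx1, and none came near the start although Ly6d RNA rose.

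Of the 15 WT CHD4 peaks, 9 overlapped an H3K4me2 peak of GMPs (37.8% of all WT peaks did), 10 one of preNeu (59.5%) and 10 one of matNeu (52.5%). Open chromatin, from a single ATAC-seq peak list because the preNeu and matNeu lists were identical, was found at the starts of Ly6g (fold enrichment 3.18) and Ly6c2 (3.10) and 8993 bp downstream of the Ly6a start (3.54). These values exceed 34.3%, 30.8% and 48.8% of that list. Of all protein-coding genes 30.3% had their start in such a peak.

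**Figure D4:**
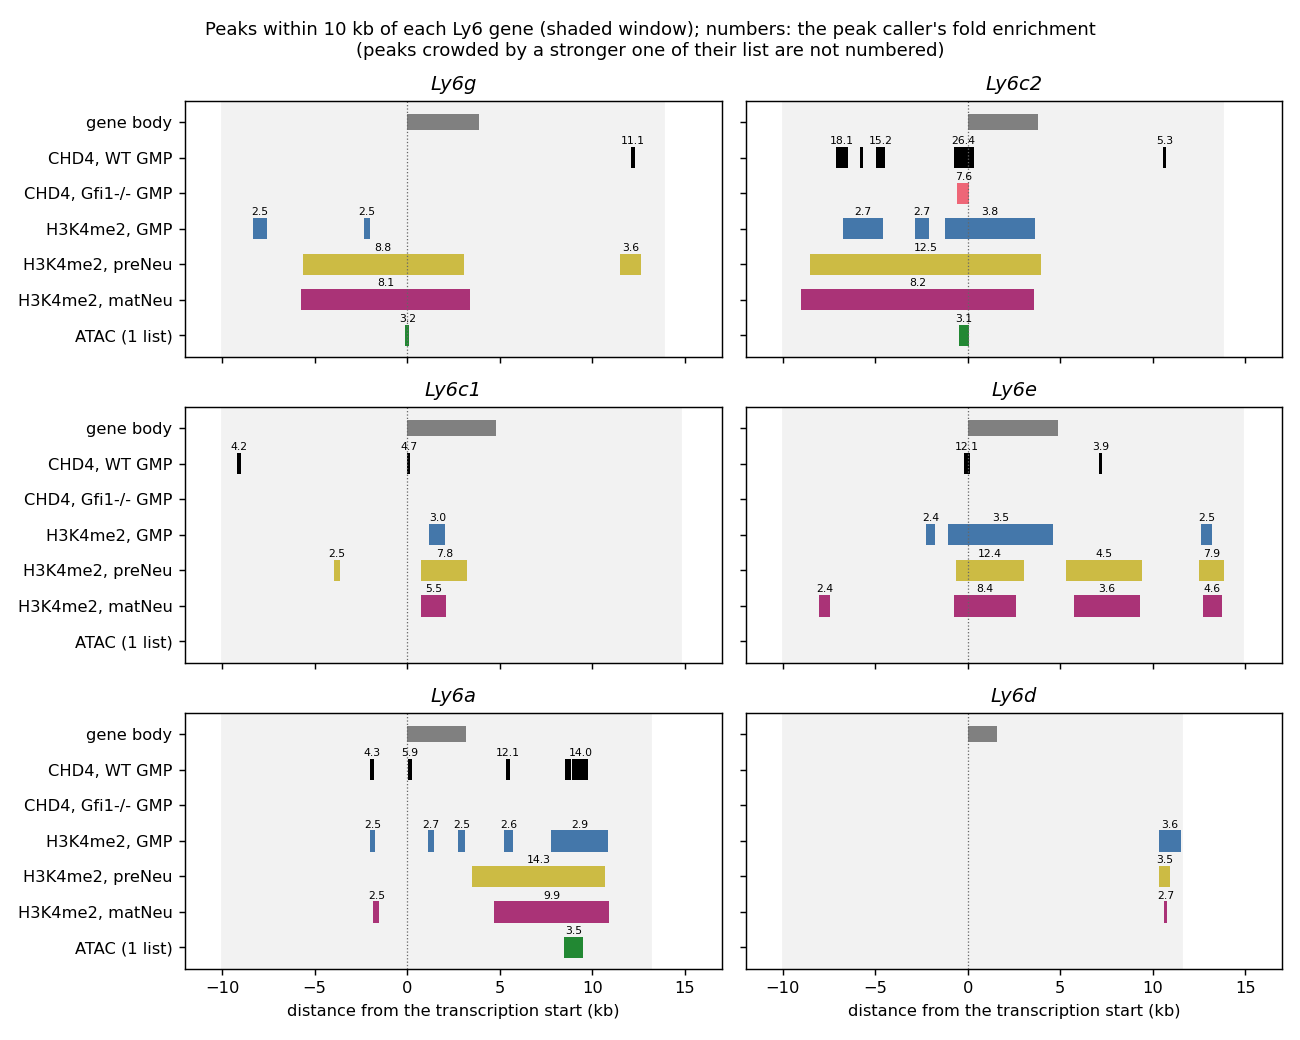
Peaks around each gene, with the distance from its transcription start in kb on the horizontal axis and the peak lists as tracks; the shaded window is the gene with 10 kb on either side, and numbers are fold enrichments. In these windows CHD4 is left in Gfi1-/- GMPs at the Ly6c2 promoter alone (7.60), and H3K4me2 domains over Ly6g appear in the preNeu and matNeu tracks.

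The summits of the Ly6g peak and of 1 upstream peak of Ly6c2 shared 59 identical bases, which were noticed after the peaks were seen. Both are printed with 50 bases on either side of the summit, on the plus strand of GRCm38.p6, the shared bases in capitals, at chr15:75118547-75118647 for the Ly6c2 peak 6627 bp upstream and at chr15:75167352-75167452 for the Ly6g peak 12162 bp downstream. Since the shared run starts at the first base of the Ly6c2 window, it may be longer than 59 bases.
Ly6c2 -6627: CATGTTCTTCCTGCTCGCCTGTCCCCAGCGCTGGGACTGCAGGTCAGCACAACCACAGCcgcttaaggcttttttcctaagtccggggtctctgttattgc
Ly6g +12162: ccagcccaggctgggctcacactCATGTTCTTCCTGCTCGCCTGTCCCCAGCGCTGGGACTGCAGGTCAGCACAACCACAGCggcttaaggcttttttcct
On chromosomes 1 to 19, X and Y the 59 bases occurred at 9 places, all on chromosome 15. Of these, 7 lay between Ly6e and Ly6g with 10 kb on either side, and all 7 were under a WT CHD4 peak. For 2 of the 7, the printed Ly6c2 and Ly6g copies, this was given, since the bases were taken from WT summits. The other 2 places, further along chromosome 15, were under none. The near copies lay 5465 bp downstream of the Ly6a start (WT peak 12.1), 6577 bp upstream of Ly6c2 (18.1) and 12135 bp downstream of Ly6g (11.1), and none of these 3 was under a Gfi1-/- peak. The other 4 in the cluster had WT values of 50.6, 52.1, 8.42 and 23.1, and 3 of them were under Gfi1-/- peaks (16.1, 17.5 and 6.64). Reads from identical copies can be assigned to any of them, so the values of single copies are uncertain.

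**Figure D5:**
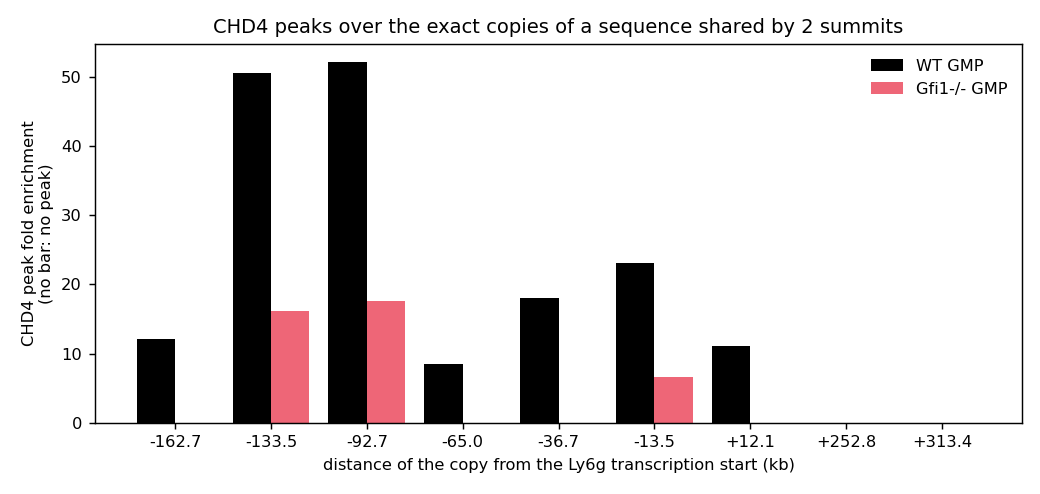
CHD4 fold enrichment in WT and Gfi1-/- GMPs at the 9 exact copies of the shared 59 bases, ordered along chromosome 15; the horizontal axis gives each copy's distance from the Ly6g start in kb, a copy with no bar is under no peak of that list, and bars of the 2 lists cannot be compared as amounts. The 7 copies of the Ly6 cluster have WT values from 8.42 to 52.1, and the 2 copies outside have none. The copies 36693 bp before and 12135 bp after the Ly6g start supplied the sequence, so their WT peaks were given.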

How the data were processed

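The authors deposited 1 table with TPM per gene in 9 libraries (TruSeq stranded mRNA kit). How TPM were made is not given in the sources used here. The submitters' processing notes name BWA 0.7.17, FastQC 0.11.5, MACS2 2.1.0, MultiQC 1.6, Trimmomatic 0.36 and kallisto 0.44.0 without roles, and the study's methods describe gene counts instead. No per-sample column was left unused (0). Columns of the deposited peak lists were taken by their position as a fold enrichment (ratio) over background, a −log10 q-value and a score for each peak. The depth behind them is unknown. The lists for GFI1 and H3K4me3 run past chromosome ends of GRCm38 (3105 of 26963 and 2179 of 20218 peaks) and were not used.

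Samples were grouped by title. limma 3.58.1 (R 4.3.3) was fitted on log2(TPM + 1) over 9 libraries and the 13061 genes that reached 1 TPM in 3 or more libraries, using a variance trend and Benjamini-Hochberg adjustment over all of them at 0.05. The fit was first tested on simulated data. Nothing says that libraries came from separate animals, so p-values measure the spread between libraries, which may be technical. For 37 symbols with several rows the highest row was taken in marker lists, and 1 marker gene is not reported here by name. Peaks (1 bp overlap) were joined to genes with 10 kb on either side in Python 3.11.15 (pandas 2.3.3, NumPy 2.4.6, matplotlib 3.10.9), and sequences came from RefSeq and the GRCm38.p6 genome.

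The members and lists were chosen with earlier results of these data known. Named besides the members are the 6 family genes with the highest cell type mean, the 2 genes of the GPI anchor and interferon lists with the largest called changes each way in matNeu against preNeu and matNeu against GMP, the sort markers, markers at 0, and the 3 genes nearest to each member. Other marker genes named (Csf1r, Ccr2, Irf8, Ctss, Cd14, F13a1, Cd79a, Cd79b, Bst2, Tcf4, Siglech, Nkg7, Cd48, Pecam1, Egfl7 and Tfrc) were chosen after their values were seen. Alternatives were other scalings, pseudocounts, filters and windows, a replicate block, a 2-group fit and leaving out each library. Same-numbered libraries correlated in their deviations by -0.04 to 0.12 over 9 pairs, so the numbers were not taken to pair samples.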

Additional observations from a re-analysis of the deposited data

How the results depend on the processing

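Of 71 alternative values of the counts of called genes and peaks, 65 stayed within 1.5 times the value given above. The exceptions were peak counts: with 5 kb on either side 8 WT CHD4 peaks were left, with 20 kb there were 5 Gfi1-/- CHD4 peaks, 18 preNeu and 20 matNeu H3K4me2 peaks, and with a −log10 q of at least 5 there were 1 GMP and 6 matNeu H3K4me2 peaks. Leaving out 1 library gave 7451 to 8154 called genes in matNeu against preNeu, 6504 to 7859 in preNeu against GMP and 9198 to 10021 in matNeu against GMP. The Ly6a change from preNeu to matNeu ran from -0.093 (without preNeu replicate 1) to 0.96 over these fits. With a replicate block the called genes were 8142, 7652 and 10032 in these comparisons, against 8197, 7706 and 10041, and no call of a member changed. Same-numbered libraries correlated by -0.04 to 0.12 and the others by -0.13 to 0.07. Among values of single members, the call was gained or lost 5 times, for Ly6g, Ly6a and Ly6e as given above, and 10 untested values moved by more than 1 SD. The cause was not tested. Depth is unknown, and low members such as Ly6c1, Ly6a and Ly6d are limited by it most.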

Other observations

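I830127L07Rik, called Ly6a2 in RefSeq, lies between Ly6c2 and Ly6g at chr15:75131377-75135128 (minus strand) and was chosen after its values were seen. GENCODE annotates it as a transcribed unprocessed pseudogene. It was listed as a processed transcript at 238, 136 and 180 TPM in GMPs, 1887, 1537 and 1267 TPM in preNeu and 485, 595 and 277 TPM in matNeu. The 3 cell types did not overlap. It rose by 3.09 on the log2 scale from GMP to preNeu (limma adjusted p = 7.87e-06) and fell by 1.84 from preNeu to matNeu (limma adjusted p = 0.00019). Of its 31-base words 73.6% occurred in no other gene. Its promoter window was identical to that of Ly6c2 in 95.4% of alignment columns but held no GAGGAAGT, and a WT CHD4 peak over it (fold enrichment 25.4) overlapped a Gfi1-/- peak. The pseudogene Gm5960, which lies between Ly6c1 and Ly6c2, was also chosen after its values were seen. It had mean levels of 88.8, 9.80 and 6.34 TPM in GMP, preNeu and matNeu.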
